A study of Homo sapiens with 8 samples.

Results

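Complement is a set of plasma and membrane proteins that tags cells and microbes for removal. C1r and C1s are the serine proteases of the first component and start the classical pathway. C3 is the protein on which all routes converge, factor B (CFB) supplies the protease of the alternative pathway convertase, and C1 inhibitor (SERPING1) and factor I (CFI) restrain the cascade in the fluid phase. Host cells protect themselves with CD46, a cofactor for factor I, with CD55, which speeds the decay of convertases, and with CD59, which blocks assembly of the membrane attack complex. Most circulating complement comes from the liver, but epithelial cells, among them carcinoma cells, also make several components, and tumour cells commonly display the membrane regulators.

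These 9 genes, C3, CFB, CFI, C1R, C1S, SERPING1, CD46, CD55 and CD59, were taken by gene symbol from a table of 58870 genes. Each symbol matched 1 row. The samples were 8 RNA sequencing libraries of the established line Panc 10.05, which derives from a human pancreatic ductal adenocarcinoma: 4 of control cells and 4 of cells overexpressing ELAPOR1, an endosome and lysosome membrane protein, from what the labels call a transgene. The labels gave neither the vector, its promoter, what the control cells carried, whether the cells were clones or pools, nor whether the replicates were separate cultures, so the p-values measure only the spread between these libraries, which may be technical. By its title, the study asked about the tumour subtype and the metabolism of cells with more ELAPOR1.

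Libraries held 13765509 to 18128757 counts, and replicate pairs differed beyond sampling noise. Chi-square per degree of freedom was 2.14 to 6.43 for control pairs, highest between replicates 1 and 4, and 1.95 to 2.22 for ELAPOR1 pairs. ELAPOR1, listed under its older symbol KIAA1324, had 1 to 4 counts in a control library and 5910 to 7368 where it was overexpressed, so all 8 libraries matched their labels. All 6 epithelial markers were expressed, with a summed level of 11929 to 13196 CPM (counts per 1000000, scaled between libraries by TMM) in control and 11159 to 11510 CPM in ELAPOR1 libraries. KRT8 and KRT18, which make up most of that sum, were called lower (-0.16 and -0.36 on the log2 scale), KRT7, KRT19 and CDH1 higher (0.32, 0.25 and 0.11), and EPCAM was not called. None of 5 hepatocyte markers exceeded 8 counts in a library, and TTR had none. The 4 acinar markers had no count. Of the 6 fibroblast markers, COL1A2, DCN and LUM had no count and COL1A1 reached 77 counts (summed level 2.95 to 4.32 CPM in control, 2.71 to 3.19 CPM in ELAPOR1 libraries). Of the 6 leukocyte and macrophage markers, AIF1 had no count, and PTPRC, CD14 and CD163 had at most 1, 11 and 7 counts in a library. The list summed to 89.4 to 96.1 CPM in control and 81.0 to 87.8 CPM in ELAPOR1 libraries. Most of it came from CD68, a lysosomal protein that is not limited to macrophages. CD68 was called lower (log2 fold change -0.16, edgeR adjusted p = 2.1e-03). CSF1R, also a macrophage marker, had 106 to 135 counts in control and 120 to 135 in ELAPOR1 libraries and was not called (log2 fold change 0.17, edgeR adjusted p = 0.244). The 4 endothelial markers summed to 1.62 to 2.13 CPM in control and 0.576 to 0.998 CPM in ELAPOR1 libraries, CDH5 having no count. Most of that sum was VWF, with 27 to 32 counts in control and 8 to 15 in ELAPOR1 libraries. VWF was called lower (log2 fold change -1.14, edgeR adjusted p = 1.9e-03). The part of these shifts in the results on complement was not tested.

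Of the 9 complement genes, 7 were tested. Of these, 5 were called lower in ELAPOR1 libraries, against 22.1% of all tested genes, and none was called higher. The component genes CFB, C3 and C1R fell by 42.1%, 32.7% and 33.2%, and the membrane regulators CD55 and CD46 by 29.7% and 14.9%. The call of C1R held under only 13 of 19 alternative settings. CD59, the gene with the most counts, averaged 502 CPM in control and 497 CPM in ELAPOR1 libraries and did not pass the test. C1S did not pass either, on 8 to 20 counts a library, and CFI and SERPING1 were close to the limit of detection in every library. In these bulk samples, fewer expressing cells and less RNA per cell cannot be told apart.

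Of the 9 genes, 7 passed the filter on low counts. Of these, 5 were lower at an edgeR adjusted p-value under 0.05 and 0 higher (0 also at an unadjusted p under 0.05, and by DESeq2 and limma-voom). Across the 13860 genes tested, 22.1% were called lower, 22.6% higher and 44.7% in either direction, so a call by itself is common in this comparison. In CPM, control and ELAPOR1 libraries had no overlap for 6 of the 7 genes, all 6 lower with ELAPOR1, where 39.2% of all tested genes did not overlap in either direction and 19.3% did so as lower. The median log2 fold change of the 7 genes was -0.51, against 0.00088 for all tested genes. The middle of the distribution of all tested genes, from the 25th to the 75th percentile, ran from -0.18 to 0.17, and the 5th percentile was -0.59. CFB alone of the 7 lay below the 5th percentile, with C1R (-0.58) and C3 (-0.57) just above it.

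**Figure D1:**
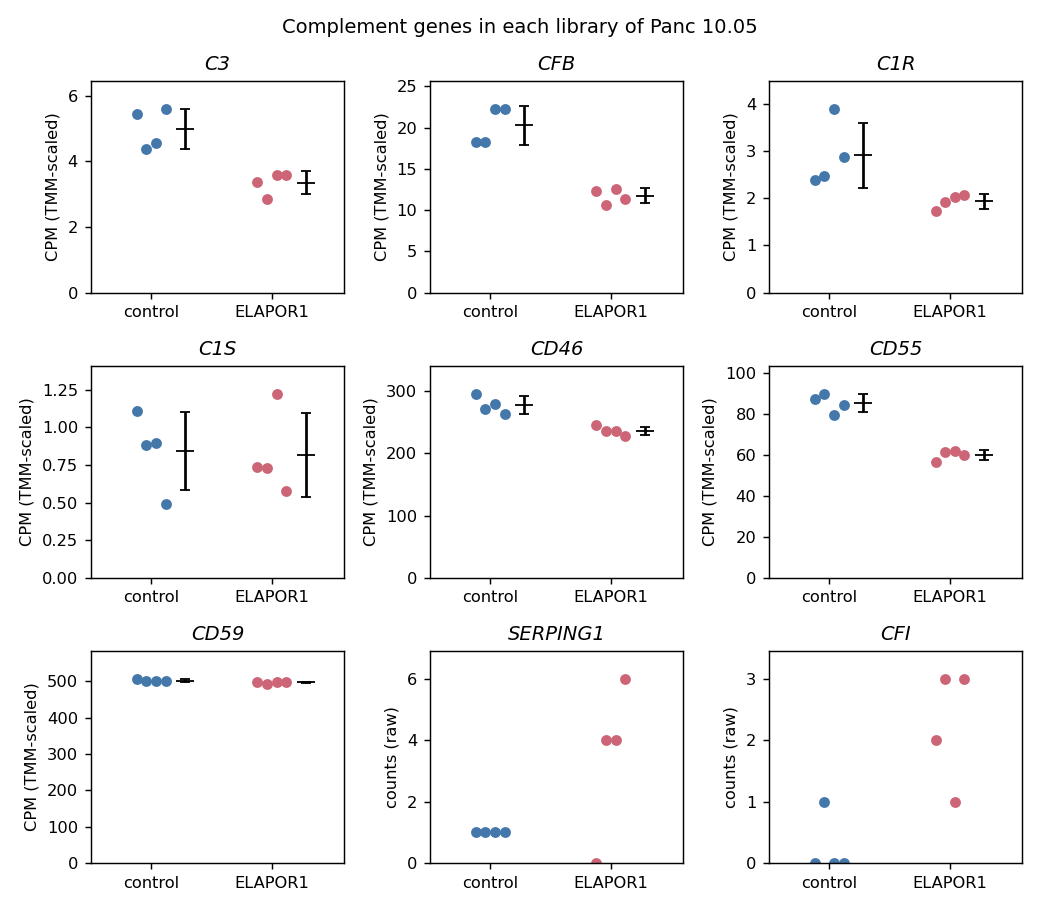
Level of each of the 9 complement genes in the 8 libraries. Points are libraries, the y axes show CPM scaled by TMM and start at 0, and the bar beside each group is the mean with its SD (n = 4); SERPING1 and CFI are drawn as raw counts. For C3, CFB, C1R, CD46 and CD55 the 4 ELAPOR1 libraries sit below the 4 control libraries.

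Of the promoter windows in RefSeq (GRCh38.p14, from 250 bases before to 50 bases after a transcript start), 11 belonged to 6 of the genes: CFB, C1R, CFI, CD46, CD55 and CD59. They were searched on both strands for 4 motifs of transcription factors known to drive complement genes under cytokines: the gamma-activated site GAS (TTCNNNGAA), the interferon-stimulated response element (ISRE), the C/EBP motif TTNCNNAA and the NF-kappaB site. The GAS motif was found in CFB, C1R and CD59, and in 7.66% of the 35116 windows of the same length genome-wide. The ISRE was found in CFB alone of the 6, and in 3.57% of all windows. The C/EBP motif was found in C1R, CFI and CD59 and in 36.8% of all windows, and the NF-kappaB site in none of the 6 and in 5.91% of all windows. A gene counts here if any of its windows held the motif (CD59 had 4 windows, C1R and CD46 2 each). The genome-wide shares are per window, so they cannot be set directly against the counts of genes. The stretches of 30 bases that hold the GAS and ISRE matches are shown because the same motif, GAS, stood before a gene that fell most, CFB, and a gene with no detectable change, CD59. Sequences run 5′ to 3′ on the strand of the gene, with the match in capitals.
CFB, GAS, 92 to 84 bases before the start (chr6:31945993-31946022, plus strand): cgcttggatgTTCCGGGAAagtgatgtggg
CFB, ISRE read on the other strand, 140 to 131 bases before the start (chr6:31945945-31945974, plus strand): acttctgcagTTTCTGTTTCcttgactggc
C1R, GAS, 86 to 78 bases before the start of 1 of its 2 windows (chr12:7091960-7091989, minus strand): gccagtcctaTTCCTGGAAggggaggggag
CD59, GAS, a site inside 2 of its 4 windows, 128 to 120 bases before the start of one and 184 to 176 before that of the other (chr11:33736588-33736617, minus strand): ccacccggccTTCTCAGAAcctgggccagg
The starts are those of the RefSeq windows. In GENCODE release 29, CFB begins at 31945650 on the plus strand and C1R at 7092607 on the minus strand. The CFB and C1R matches thus lie inside those annotated genes, whereas the CD59 match lies outside CD59, which begins at 33736491 on the minus strand. A match is a run of letters and not a shown binding site, and no binding was measured here.

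CFB (ENSG00000243649.8, chromosome 6, 31945650 to 31952084, plus strand, in the class III region of the major histocompatibility complex) encodes factor B, whose fragment Bb is the catalytic subunit of the alternative pathway C3 convertase. Its level was 18.2, 18.3, 22.2 and 22.3 CPM in control replicates 1 to 4 and 12.3, 10.6, 12.6 and 11.4 CPM in ELAPOR1 replicates 1 to 4. Every ELAPOR1 library was below every control library, and the control libraries fell into a lower and a higher pair. The mean went from 20.3 ± 2.31 to 11.7 ± 0.900 CPM (mean ± SD, n = 4 a group), which is -0.79 on the log2 scale (SE 0.0891; adjusted p = 5.5e-09, edgeR). This was the largest change among the 7 tested genes. In the annotation CFB shares 2249 bases of exon with AL645922.1, a transcript that runs through from C2, and that gene held at most 2.40 counts in a library. C2 itself, the classical pathway counterpart of factor B and its neighbour, had 4 to 10 counts in control and 0 to 6 in ELAPOR1 libraries and did not pass the filter.

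C3 (ENSG00000125730.16, chromosome 19, 6677704 to 6730562, minus strand) encodes the central component, cleaved to the opsonin C3b and the anaphylatoxin C3a. Its counts were 98, 74, 76 and 92 in the control libraries and 55, 43, 50 and 62 in the ELAPOR1 libraries, or 5.43, 4.37, 4.55 and 5.61 against 3.38, 2.86, 3.60 and 3.58 CPM. The groups did not overlap, although they came within 1 CPM of each other. The mean went from 4.99 ± 0.621 to 3.35 ± 0.343 CPM (mean ± SD, n = 4 a group), which is -0.57 on the log2 scale (SE 0.160; 95% interval -0.90 to -0.25; adjusted p = 3.7e-03, edgeR). The log2 ratio of CFB to C3 was 2.02 ± 0.223 in the controls and 1.81 ± 0.102 with ELAPOR1 (mean ± SD, n = 4 a group), and the difference of -0.21 did not pass (exact permutation p = 0.143, adjusted 0.19 over 4 pairs, two-sided), so a larger fall of CFB than of C3 was not shown. Without control replicate 1 that difference was -0.31 (adjusted exact p = 0.0381).

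C1R (ENSG00000159403.17, chromosome 12, 7080199 to 7092607, minus strand) encodes the protease that activates C1s. It was at 2.38, 2.48, 3.90 and 2.87 CPM in control and 1.72, 1.93, 2.02 and 2.08 CPM in ELAPOR1 libraries. All 4 ELAPOR1 libraries were below the lowest control library, and control replicate 3 stood above the other controls. Its log2 fold change of -0.58 passed the threshold (SE 0.218; 95% interval -1.03 to -0.14, edgeR adjusted p = 0.0289). This call was lost with the DESeq2 Wald test (adjusted p = 0.0721), without control replicate 3 (-0.41, edgeR adjusted p = 0.170), without ELAPOR1 replicate 1 (adjusted p = 0.0775) and without ELAPOR1 replicate 2 (adjusted p = 0.0524). The gene has 672 bases of exon in common with C1RL, a C1r-like protease gene on the same strand, so reads there could be assigned to either gene. C1RL had 304 to 340 counts in control and 185 to 229 in ELAPOR1 libraries (log2 fold change -0.54). C1R itself had 42 to 65 and 28 to 36 counts, and the part of C1RL in them was not tested.

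C1S (ENSG00000182326.15, chromosome 12, 6988259 to 7071032, plus strand) lies 9.2 kb from C1R and encodes the protease that cleaves C4 and C2. It had 20, 15, 15 and 8 counts in control and 12, 11, 17 and 10 in ELAPOR1 libraries. The groups overlapped throughout. Its log2 fold change of -0.08 did not pass (SE 0.359; adjusted p = 0.886, edgeR), and the 95% interval from -0.81 to 0.66 includes a fall as large as that of C1R. The log2 ratio of C1R to C1S did not differ between groups beyond the spread (1.82 ± 0.646 in control and 1.30 ± 0.466 in ELAPOR1 libraries, mean ± SD, n = 4 a group, exact permutation p = 0.257, also 0.257 after adjustment). C1S shares 229 bases of exon with EMG1 on the same strand, so reads there could be assigned to either gene. EMG1 had 1376 to 1571 counts in control and 1254 to 1780 in ELAPOR1 libraries, and its part in the counts of C1S was not tested.

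The secreted regulators had very few counts. SERPING1 (ENSG00000149131.15, chromosome 11, 57597387 to 57614853, plus strand), the inhibitor that inactivates C1r and C1s, had 1 count in each control library and 0, 4, 4 and 6 counts in the ELAPOR1 libraries. Over the groups that is 4 against 14 counts, a ratio of 3.81 after scaling, with an exact 95% counting interval of 1.20 to 15.9 that leaves out the spread between libraries. With no filter on low counts, edgeR gave an adjusted p-value of 0.219. The count of 0 in ELAPOR1 replicate 1 allows a level of up to 0.184 CPM. CFI (ENSG00000205403.13, chromosome 4, 109740694 to 109802179, minus strand), the protease that destroys C3b and C4b, had 0, 1, 0 and 0 counts in control and 2, 3, 1 and 3 counts in ELAPOR1 libraries. These are at or under the 3 counts that a count of 0 allows, so no fold is given, and with no filter edgeR gave an adjusted p-value of 0.132 (0.0413 before adjustment). Counts of both genes were mostly higher in ELAPOR1 libraries, and neither difference passed the test. The annotation places 1562 bases of CFI exon inside AC126283.2 on the same strand, so reads there could be assigned to either gene. AC126283.2 held 0 to 5.75 counts in control and 0 in every ELAPOR1 library, the opposite direction to CFI, and the part of that split in the counts of CFI was not tested.

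**Figure D2:**
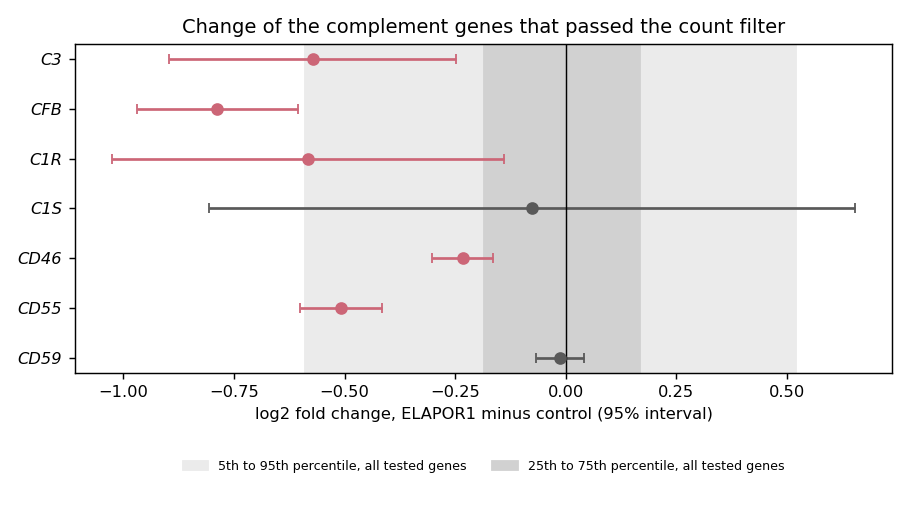
Log2 fold change (x axis, ELAPOR1 minus control) of the 7 complement genes that passed the count filter, with 95% intervals from the edgeR fit; red marks an adjusted p-value under 0.05, and the grey bands are the percentiles of all 13860 tested genes. CFB lies at -0.79, CD46 and CD55 have narrow intervals below 0, CD59 has a narrow interval around 0 and C1S a wide one.

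The membrane regulators were far more abundant, and each had a narrow interval. CD55 (decay-accelerating factor, ENSG00000196352.15, chromosome 1, 207321376 to 207386804, plus strand) dismantles C3 and C5 convertases. It was at 87.0, 89.7, 79.5 and 84.1 CPM in control and 56.7, 61.3, 61.8 and 59.7 CPM in ELAPOR1 libraries. The groups were well apart. The mean went from 85.1 ± 4.40 to 59.9 ± 2.33 CPM (mean ± SD, n = 4 a group), which is -0.51 on the log2 scale (SE 0.0456; adjusted p = 3.3e-11, edgeR).

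CD46 (membrane cofactor protein, ENSG00000117335.19, chromosome 1, 207752057 to 207795513, plus strand) lies 365.3 kb from CD55 in the cluster of regulators of complement activation and serves as cofactor for the cleavage of C3b and C4b by factor I. It was at 296, 272, 279 and 263 CPM in control and 245, 236, 237 and 228 CPM in ELAPOR1 libraries. Here too no ELAPOR1 library reached the lowest control. Its log2 fold change was -0.23 (SE 0.0340; 95% interval -0.30 to -0.16, edgeR adjusted p = 8.0e-07), which is small and below the median size of 0.28 of all called genes.

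CD59 (protectin, ENSG00000085063.16, chromosome 11, 33703010 to 33736491, minus strand) binds C8 and C9 and stops pore formation. It was at 507, 501, 499.7 and 499.9 CPM in control and 499, 494, 499 and 498 CPM in ELAPOR1 libraries. On this scale each ELAPOR1 library was below each control, but by less than 1 CPM at the closest. The means were 502 ± 3.31 and 497 ± 2.28 CPM (mean ± SD, n = 4 a group), a log2 fold change of -0.01 with a 95% interval of -0.07 to 0.04 (edgeR adjusted p = 0.723). The interval corresponds to a change between -4.58% and 2.89%. With total count scaling the sign turned (0.01, edgeR adjusted p = 0.829). CD59 shares 629 bases of exon with AL049629.2, which had 35.7 to 81.2 counts in control and 12.7 to 35.9 in ELAPOR1 libraries, against at least 6926 counts for CD59.

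The 3 membrane regulators thus had different values. The log2 ratio of CD55 to CD59 was -2.54, -2.48, -2.65 and -2.57 in control and -3.14, -3.01, -3.01 and -3.06 in ELAPOR1 libraries. The groups did not overlap, and the difference of -0.49 gave an exact permutation p of 0.0286, the smallest that 4 against 4 libraries allow, and 0.0571 after adjustment over 4 pairs. The log2 ratio of CD46 to CD55 was 1.71 ± 0.100 in control and 1.98 ± 0.0870 in ELAPOR1 libraries (mean ± SD, n = 4 a group), again without overlap (difference 0.28, exact permutation p = 0.0286, adjusted 0.0571). Neither passes 0.05 after adjustment. CD55 and CD59 are held at the surface by a glycosylphosphatidylinositol (GPI) anchor, whereas CD46 spans the membrane.

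Levels of different genes were compared per length, as counts per kilobase of annotated exon scaled to an equal total in every library (TPM-like). In control libraries CD59 was highest at 178 ± 3.31, followed by CD46 at 117 ± 7.33, CD55 at 52.8 ± 2.81, CFB at 14.9 ± 1.63, C3 at 2.20 ± 0.283, C1R at 1.81 ± 0.433 and C1S at 0.481 ± 0.152 (mean ± SD, n = 4 a group). SERPING1, at 0.0574 to 0.0615, and CFI, at 0 to 0.0440, came last. Neighbours in this order did not overlap between libraries, except C3 and C1R. The order of the means was the same in ELAPOR1 libraries, where C3 and C1R, C1S and SERPING1, and SERPING1 and CFI overlapped. CD59 was at 179 to 180 per length in ELAPOR1 libraries, within the control range of 175 to 183. Of the summed per-length level of the 3 membrane regulators, CD59 made up 50.1 to 52.1% in control and 56.0 to 56.97% in ELAPOR1 libraries, and CD55 14.3 to 16.0% and 11.2 to 12.2%. Exon length counts every annotated transcript, so the level of a gene that mainly uses short forms is understated.

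**Figure D3:**
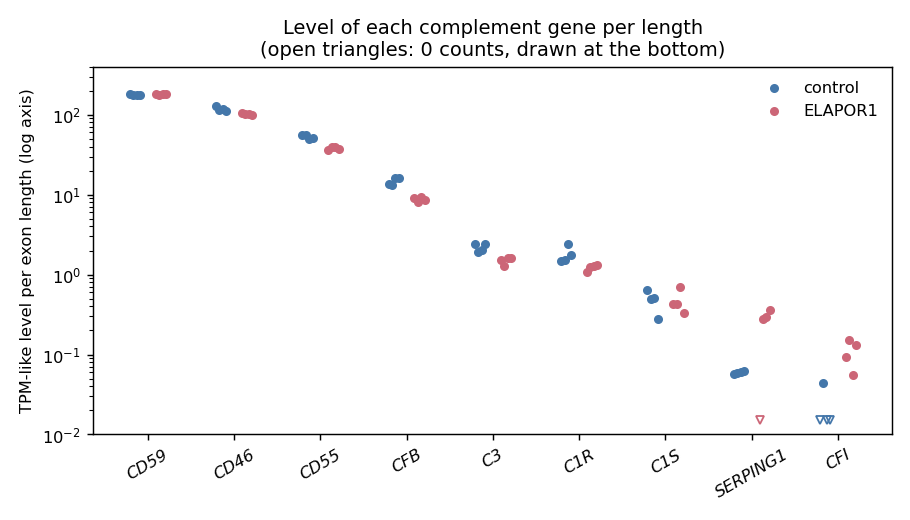
Level of the 9 complement genes per exon length (TPM-like, log axis), each point 1 library, control in blue and ELAPOR1 in red; open triangles mark libraries with 0 counts. The membrane regulators CD59, CD46 and CD55 stand highest, from 178 to 52.8 in control, and the fluid-phase regulators SERPING1 and CFI lowest.

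A list of 48 further complement genes was read from the same fit. Of these, 23 had no count in any library, among them all 3 chains of C1q, the lectins MBL2 and FCN1 to FCN3, and C6, C7, C8A, C8B and C9 of the membrane attack complex. Another 17 had counts but did not pass the filter, and 8 were tested. Of the 8, 3 were called higher and 2 lower, against 22.6% and 22.1% of all tested genes, and the median log2 fold change was 0.036. C1RL (chromosome 12, 7089587 to 7109273) overlaps C1R and fell from 18.7 ± 0.515 to 12.9 ± 0.990 CPM (mean ± SD, n = 4 a group, -0.54, edgeR adjusted p = 1.5e-06). ITGAX, a subunit of complement receptor 4, fell from 1.46 ± 0.471 to 0.855 ± 0.215 CPM with overlap between the groups (-0.78, edgeR adjusted p = 0.0437).

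In the other direction, C5, the source of C5a and of the first protein of the attack complex, rose from 3.24 ± 0.0946 to 4.64 ± 0.569 CPM (0.52, edgeR adjusted p = 9.3e-03). Clusterin (CLU), a secreted chaperone that also blocks the attack complex, rose from 3.39 ± 0.576 to 4.89 ± 0.220 CPM (0.52, adjusted p = 8.0e-03). C1QBP, a mainly mitochondrial protein that binds the globular heads of C1q, rose slightly, from 99.3 ± 3.10 to 109 ± 3.73 CPM (0.14, adjusted p = 3.1e-03; mean ± SD, n = 4 a group). C4A and C4B, near-identical copies between which reads cannot be divided with confidence, did not pass (-0.14 and -0.07, edgeR adjusted p = 0.628 and 0.880), nor did CFD, the protease that activates factor B (0.53, adjusted p = 0.185).

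Because CD55 and CD59 need a GPI anchor, 29 genes of its synthesis and attachment were read too. Of 28 tested, 6 were called higher and 5 lower, or 39.3% in either direction against 44.7% of all tested genes, with a median log2 fold change of 0.0040. PIGW (0.67, edgeR adjusted p = 3.1e-11), which acylates inositol in the anchor precursor, and PIGM (0.55, adjusted p = 2.4e-07), which adds its first mannose, rose most. PIGN rose by 0.26 (edgeR adjusted p = 0.0105), while PIGZ (-0.53, adjusted p = 0.0331), PIGP (-0.48, adjusted p = 3.6e-04) and PIGV (-0.43, adjusted p = 1.1e-03) fell. PIGA, needed for the first step, was not called.

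Complement genes are known to be induced by interferons through IRF factors, among others, and by IL-6 and IL-1 type cytokines through STAT3, C/EBP and NF-kappaB. Of 26 genes of these routes, 22 were tested, and 6 were called higher and 7 lower, or 59.1% in either direction against 44.7% of all tested genes (median log2 fold change 0.052). IRF9, a subunit of the factor that binds the ISRE, rose from 20.2 ± 1.86 to 30.1 ± 1.45 CPM (0.57, edgeR adjusted p = 3.3e-08), and IRF1 from 32.7 ± 1.70 to 42.0 ± 1.13 CPM (0.36, adjusted p = 2.6e-06; mean ± SD, n = 4 a group). The C/EBP factors went the other way: CEBPB fell from 20.6 ± 2.32 to 14.1 ± 1.96 CPM (-0.54; adjusted p = 2.0e-05 by edgeR) and CEBPD by 0.26 on the log2 scale (adjusted p = 0.0102). SOCS3, a feedback inhibitor induced by STAT3, fell by 0.38 on the log2 scale (adjusted p = 1.0e-06), and LIF, a cytokine of the IL-6 family, rose by 0.23 (adjusted p = 6.3e-05). CFB, which has an ISRE match in its promoter window, was lower in the ELAPOR1 libraries, and no binding of IRF9 was measured. The part of any of these factors in the change of the complement genes was not tested.

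**Figure D4:**
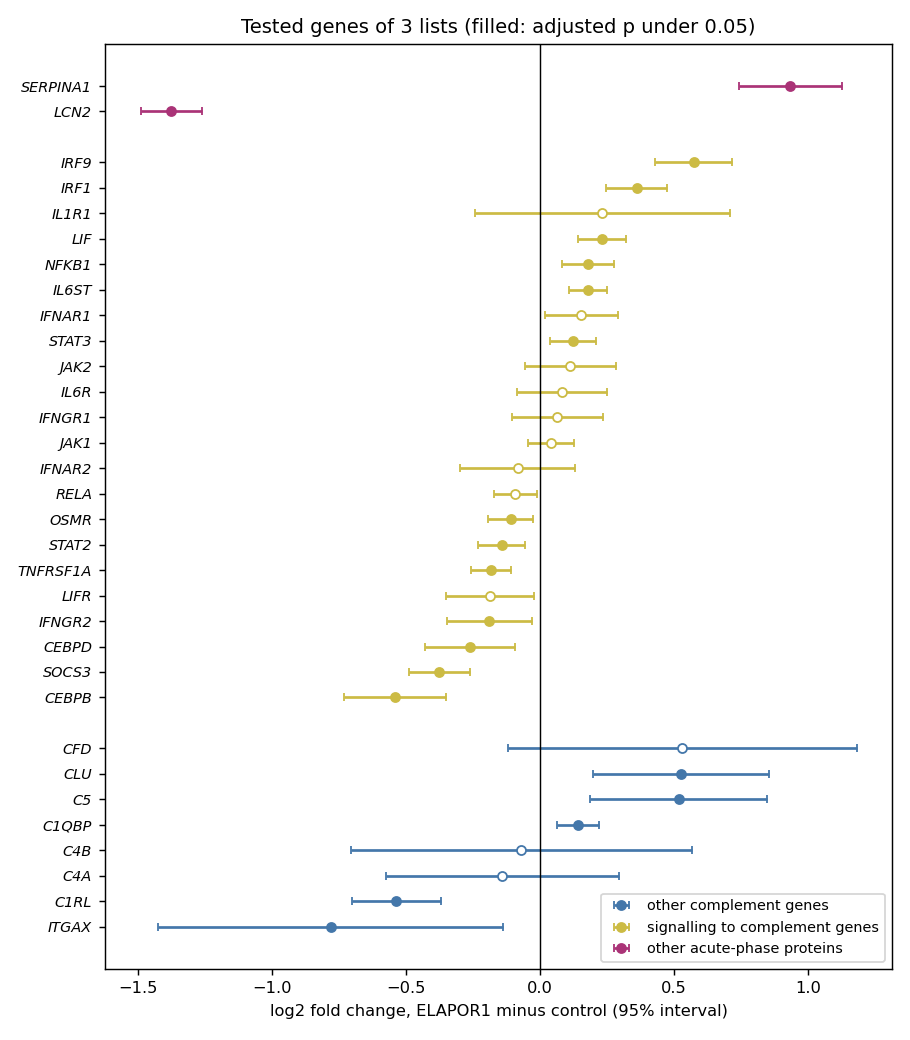
Log2 fold change (x axis, ELAPOR1 minus control, with 95% intervals) of the tested genes of 3 lists: other complement genes, signalling to complement genes, and other acute-phase proteins. Filled points passed an adjusted p-value of 0.05; IRF9 lies at 0.57 and CEBPB at -0.54, and LCN2 and SERPINA1 lie on opposite sides of 0.

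C3 and CFB belong to the acute-phase proteins, whose synthesis rises in inflammation. Of 18 others listed, 16 did not pass the filter on low counts, and the 2 tested went in opposite directions. LCN2 (lipocalin 2) fell from 63.7 ± 3.89 to 24.6 ± 1.02 CPM (-1.38; adjusted p = 6.4e-20 by edgeR), and SERPINA1 (alpha-1 antitrypsin) rose from 8.40 ± 0.675 to 16.1 ± 1.18 CPM (0.93, adjusted p = 5.1e-10; mean ± SD, n = 4 a group). Among 10699 other tested genes that averaged 5 CPM or more, the 3 whose pattern over the 8 libraries was nearest to that of C3 were C9orf72 (root mean square difference 0.043 in log2(CPM + 1) relative to the control mean), CLCN7 (0.067) and CA11 (0.067), with log2 fold changes of -0.50, -0.51 and -0.46. C3 itself, at 4.99 CPM in control and 3.35 CPM in ELAPOR1 libraries, was below that floor. The difference between groups was part of the match, so falls of about this size follow from the selection.

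**Figure D5:**
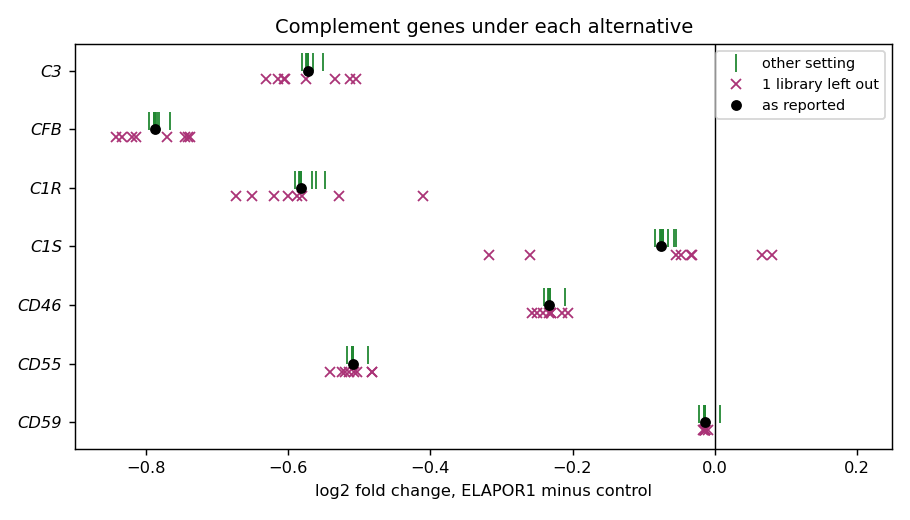
Log2 fold change (x axis, ELAPOR1 minus control) of the 7 tested complement genes as reported (black), under other settings (green bars) and with 1 library left out (purple crosses). C3, CFB, C1R, CD46 and CD55 stay below 0 throughout, while C1S and CD59 fall on both sides of it.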

How the data were processed

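The authors deposited 1 table of expected counts per gene, as RSEM estimates them, with no scaling between libraries; 15.0% of nonzero values were not whole. Per the submitters' processing notes, cutadapt, STAR, RSEM and DESeq2 were used with hg38; their versions and roles, the annotation and whether strand was used are not given in the sources used here. Reads of overlapping genes or near-identical copies may thus be split either way. Columns were matched to samples by title. Coordinates and exon lengths are from GENCODE release 29 (GRCh38), which held 58597 of the 58870 gene identifiers without their version number and 6 of the 9 complement genes at the same version.

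After rounding, the counts went into edgeR 4.0.16 (R 4.3.3): filterByExpr, TMM scaling, robust quasi-likelihood test of ELAPOR1 against control with no covariate, two-sided, Benjamini-Hochberg adjustment over 13860 genes, threshold 0.05. The SE is the log2 fold change divided by the square root of F. Ratios of gene pairs were compared by a two-sided exact permutation test over libraries and adjusted over the 4 of 5 pairs that gave a value (SERPING1 to C1S had a count of 0). Low counts have exact Clopper-Pearson intervals, which cover counting error only. Alternatives were other scalings, DESeq2 1.42.0, limma-voom (limma 3.58.1), other filters, a replicate block, each library left out, a threshold of 0.01, a test against a 1.5-fold change (glmTreat) and ELAPOR1 left out of the table. The fit was tested on simulated counts. The complement genes and all lists were chosen with earlier results of these data known. A gene of the list of signalling genes is not reported here and is left out of the counts of that list. Genes named from a list are at most the 6 called ones with the largest change, and further genes named as not called were picked after their values were seen. Plots were drawn with matplotlib 3.10.9.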

Additional observations from a re-analysis of the deposited data

Results flagged for a closer look

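Within each group of 4 libraries, a library was singled out where its gap to the nearest other took up more than 0.829 of the range of the group. Of 20 groups examined (CPM of the 9 complement genes and library totals), 2 met this. About 1 in 20 would by chance if values were normally distributed, which counts near 0 are not. CD59 was at 494 CPM in ELAPOR1 replicate 2 and at 498 to 499 CPM in the other ELAPOR1 libraries; the gap is small beside the level of the gene. CFI was at 0.0590 CPM in control replicate 2, which is 1 count, and had no count in the other control libraries. Such a pattern always meets the rule.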

How the results depend on the processing

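C3, CFB, CD46 and CD55 were lower and called under 18 of 19 alternatives each, the exception being the test against a 1.5-fold change. That test (glmTreat in edgeR) called 215 of all genes and 0 of the 7 complement genes (1 at an unadjusted p under 0.05; DESeq2 called 4 and limma-voom 5 at the usual threshold). C1R was lower under all 19 and called under 13; besides the losses given with the gene, it was lost at a threshold of 0.01 and against a 1.5-fold change. Leaving out each library in turn gave 5557 to 6316 called genes, 4 to 5 called complement genes, and pair differences of -0.75 to -0.27 for C1R to C1S, -0.31 to -0.13 for CFB to C3, -0.52 to -0.47 for CD55 to CD59 and 0.23 to 0.31 for CD46 to CD55. C1S was -0.32 to 0.08, turning positive without control replicate 1 (0.08) and without ELAPOR1 replicate 4 (0.07), and CD59 turned to 0.01 with total count scaling. Without control replicate 1 the pairs CFB to C3 (-0.31), CD55 to CD59 (-0.49) and CD46 to CD55 (0.30) passed (adjusted exact p = 0.0381). The adjusted p of a pair depends on the p-values of the other pairs. With all libraries CD55 to CD59 had the same difference of -0.49 and an adjusted exact p of 0.0571, so its pass adds no evidence of its own. Same-numbered libraries did not deviate together over all tested genes (correlations of their deviations -0.0379 to 0.0203, none the best match of its own number). This cannot show whether they shared a culture or a preparation, which the labels do not give. With the replicate number as a block 5926 genes and 5 complement genes were called. Depth limits C1S, CFI and SERPING1, which had at most 20, 3 and 6 counts in a library.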
